A study of Mus musculus with 22 samples.

Results

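The 39 genes described here encode lysosomal enzymes, lysosomal membrane proteins and the proton pump that acidifies the lysosome, and they were followed through mouse embryonic stem cells (ESCs) and stem cells of the primitive endoderm (PrE). They were taken from a named list of symbols, with no measured value in the rule. The list was, however, chosen with earlier results of these data known, so its shares are a description of a chosen set. All 39 were found among the 55367 symbols of the count table, and all 39 were among the 17547 genes with enough counts to be tested. By role they comprised 8 proteases, 7 glycosidases, 3 lipid and lipoprotein hydrolases, 4 membrane proteins, 3 proteins of sterol and sphingolipid handling, progranulin (Grn), 3 regulators and channels, and 10 V-ATPase genes.

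Lysosomes digest what a cell takes up by endocytosis and what autophagy brings to them. Their hydrolases work at acid pH, which the V-ATPase maintains: its membrane-bound V0 ring passes protons while the V1 head burns ATP, and accessory subunits help to assemble the pump. TFEB and TFE3, members of the MiT family of transcription factors, bind a palindrome known as the CLEAR element in many lysosomal promoters. PrE is the extraembryonic layer of the blastocyst that gives rise to the yolk sac endoderm, a tissue known for vigorous uptake and digestion of maternal protein.

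The 22 RNA-seq libraries fell into 10 groups. C57_ESC and C57_PrESC (n = 2 each) were wild-type cells of a line labelled C57, grown as ESCs with LIF or as PrE stem cells in their own medium. All other groups came from E14, a widely used mouse ESC line. EPZ_iPrE1 and EPZ_iPrE2 (n = 2 each), labelled wild-type, were separate PrE stem cell lines induced from wild-type ESCs with EPZ-6438, an inhibitor of the Polycomb methyltransferase EZH2, and were grown in PrE stem cell medium. Wild-type ESCs in serum and LIF were present as TG2A_ESC (n = 2) and E14_ESC (n = 3). KO10_SL (n = 3) was a single Ezh2-null clone in serum and LIF, and KO10_SL_rescued (n = 2) was that clone with Ezh2 restored. KO10_S2iL and TG2A_S2iL (n = 2 each) were the null clone and wild-type cells with the kinase inhibitors called 2i added. Cell state and medium, and for the EPZ lines inhibitor exposure, cannot be told apart in the PrE comparisons, and genotype and clone cannot be told apart for the null cells. Nothing in the labels says that replicates were separate cultures, so p-values measure only the spread between these libraries.

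The libraries held 13.59 to 26.28 M estimated counts each. Replicates correlated at Pearson 0.967 in C57_PrESC, 0.973 in C57_ESC and 0.988 to 0.997 elsewhere, across genes on the log2 scale. Ezh2 stood at 0.0813, 0.0409 and 0.0424 CPM in KO10_SL and 0.302 and 0 in KO10_S2iL, against 173, 181 and 184 in E14_ESC and 495 and 533 in KO10_SL_rescued, where CPM is the count divided by the scaled library size in M (mega-counts). The defining PrE markers Gata6, Gata4, Sox17 and Pdgfra summed to 1116 to 1726 CPM in the 6 PrE libraries, and the ESC markers Nanog, Sox2 and Fgf4 to 0.291 to 9.55 CPM there. In the ESC groups with LIF the same PrE markers summed to 2.58 to 55.4 CPM, and in KO10_SL to 111 to 139.8 CPM. C57_PrESC replicate 2 carried more RNA of macrophage and fibroblast genes than replicate 1, so values from C57_PrESC are given with and without it where the library matters.

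Promoters of 32 of the 39 genes were matched in RefSeq (assembly GRCm38.p6), as windows from 250 bases before to 50 bases after each start. The CLEAR-type palindrome TCACGTGA, which reads the same on both strands, stood in the windows of 6 of the 32 genes (18.8%), against 304 of 27025 genes in the whole table (1.12%). Its core CACGTG, which every TCACGTGA contains, stood in 10 of 32 (31.2%), against 8.09% of all genes. The genes with the full palindrome were Ctsa, Ctsd, Gla, Mcoln1, Atp6v0d1 and Atp6v1a, and those with the core alone were Lamp1, Ctsl, Glb1 and Gaa. The stretches below were chosen because they show how the element is placed in genes of different roles: a membrane protein, a channel, 3 hydrolases and a pump subunit. Each is written 5′ to 3′ on the strand of its gene, and capitals mark the core with an adjoining T before it or A after it where present.
Lamp1: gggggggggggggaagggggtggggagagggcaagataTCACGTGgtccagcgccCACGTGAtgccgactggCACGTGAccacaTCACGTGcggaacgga
Mcoln1: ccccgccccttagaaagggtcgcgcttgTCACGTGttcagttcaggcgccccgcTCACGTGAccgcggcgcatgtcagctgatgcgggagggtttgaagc
Ctsd: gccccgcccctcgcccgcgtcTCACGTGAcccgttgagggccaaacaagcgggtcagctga
Atp6v1a: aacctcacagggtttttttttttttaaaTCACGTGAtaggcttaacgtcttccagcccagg
Gla: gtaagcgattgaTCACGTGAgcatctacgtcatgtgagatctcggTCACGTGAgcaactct
Ctsa: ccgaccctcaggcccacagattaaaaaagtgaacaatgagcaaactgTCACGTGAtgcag

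These stretches lie at chr8:13159061-13159160 (plus strand) for Lamp1, chr8:3500419-3500518 (plus strand) for Mcoln1, chr7:142387887-142387947 (minus strand) for Ctsd, chr16:44139359-44139419 (minus strand) for Atp6v1a, chrX:134601185-134601245 (minus strand) for Gla, chr2:164833713-164833772 (plus strand) for Ctsa. The Lamp1 stretch held 4 copies of the core within 100 bases, none of them with the full palindrome, while the Gla stretch held 2 full copies. Ctsa had a further full copy that began at base 5 after the start, outside its printed stretch. A match is a description of the letters and not a measured binding site. Genes with the full palindrome had a median log2 fold change of 0.97 in EPZ_iPrE1, 1.02 in EPZ_iPrE2 and 1.34 in C57_PrESC over their ESCs. The 26 genes without it had medians of 1.02, 1.22 and 1.66, so neither the genes with it nor those without it stood clearly above the other in these medians.

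In sum the 39 genes took a larger share of the RNA in every PrE library than in any ESC library. They added up to 11926 and 14687 CPM in C57_PrESC, 8198 and 8222 CPM in EPZ_iPrE1 and 8875 and 9662 CPM in EPZ_iPrE2. The ESC groups with LIF held 3544 and 3438 CPM in C57_ESC, 2586 and 3895 CPM in TG2A_ESC and 2612, 2766 and 2979 CPM in E14_ESC. Ezh2-null cells lay between them and the PrE lines, at 4516, 4359 and 4379.9 CPM in KO10_SL, and the rescued clone was back at 2582 and 2552 CPM. Wild-type and null cells with 2i had 4291 and 4223 CPM and 4883 and 4928 CPM. The V-ATPase genes varied less than the rest. The pump genes summed to 996 and 931 CPM in C57_ESC and 2089 and 2579 CPM in C57_PrESC, while the other 29 genes went from 2548 and 2507 CPM to 9837 and 12108 CPM. Such sums are carried by the most abundant genes, and in bulk RNA fewer cells of a type and less RNA per cell cannot be told apart.

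**Figure D1:**
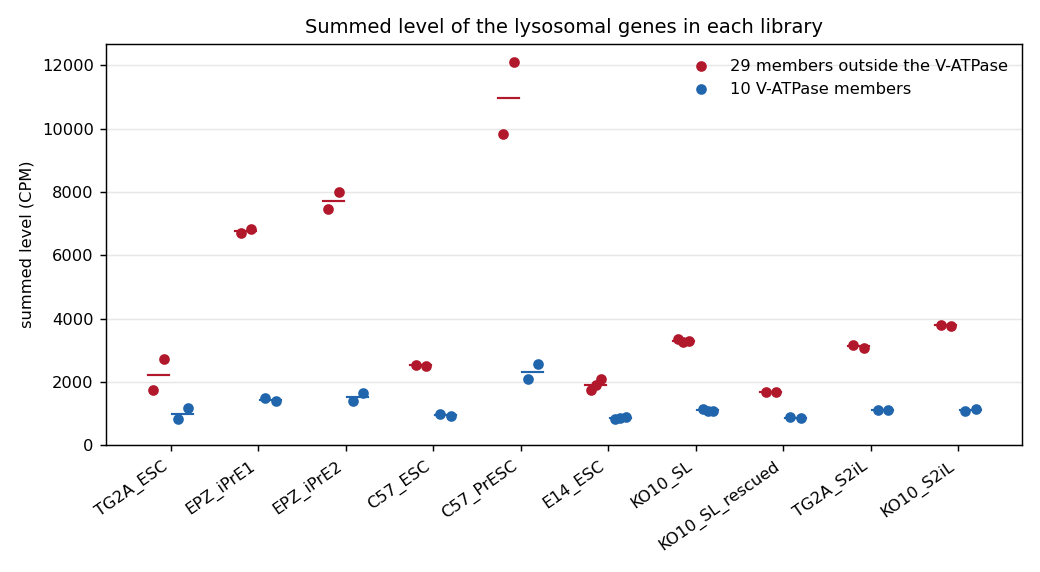
Summed level (CPM) of the 29 members outside the V-ATPase (red) and of the 10 V-ATPase members (blue) in each of the 22 libraries, by group; points are libraries and lines are group means. The 6 PrE libraries sit highest for both sets, and the red points rise further than the blue ones.

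Per kilobase of exon, Lamp1, which encodes a major glycoprotein of the lysosomal membrane, led in all ESC groups with LIF that served as PrE controls, at 111 CPM per kb in C57_ESC and 164 in TG2A_ESC. It still led in EPZ_iPrE1 and EPZ_iPrE2, at 289 and 320.3 CPM per kb. In C57_PrESC the cathepsins Ctsz (505 CPM per kb) and Ctsl (392) stood above Lamp1 (356). Ctsa moved from rank 21 of 39 in TG2A_ESC and 22 in C57_ESC to rank 4 in C57_PrESC and 6 in both EPZ lines. Ctsh was last of the 39 in every ESC and null group, at 0.122 CPM per kb in TG2A_ESC, and reached 25.7 in C57_PrESC.

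Most of the list was higher in PrE cells, whichever line was examined. In C57_PrESC over C57_ESC, edgeR's quasi-likelihood test called 33 of 39 genes higher (84.6%, where 27.3% of all 17547 genes were) and 1 lower (33.4% of all genes were), at a Benjamini-Hochberg adjusted p below 0.05. The median log2 fold change of the list was 1.44, against -0.09 over all genes. In EPZ_iPrE1 over TG2A_ESC, 28 were higher (71.8%, against 27.9% of all genes) and 2 lower (5.13%, against 32.2%), with medians of 1.08 and -0.07. In EPZ_iPrE2, which was set against the same TG2A_ESC libraries, 28 were higher (28.8% of all genes) and 2 lower (33.4%), with medians of 1.21 and -0.11. The C57 and EPZ_iPrE1 comparisons share no library. They called 26 genes higher in common, which is 66.7% of the list where 17.6% of all genes were higher in both; these 26 were 26 of the 33 called in C57 and 26 of the 28 called in EPZ_iPrE1. For C57 and EPZ_iPrE2 the number was 25 (64.1%, against 18% of all genes), or 25 of 33 and 25 of 28. Without C57_PrESC replicate 2 the C57 comparison called 30 of 39 higher (24.3% of all genes) and 1 lower (31.4%), with a median of 1.41 against -0.20 over all genes. The 7 defining macrophage genes summed to 0.538 to 1.91 CPM in the 4 EPZ libraries and 0.52 to 0.943 CPM in TG2A_ESC, with 2 to 5 and 6 of the 7 at 0. The 15 fibroblast genes summed to 201 and 37.1 CPM in EPZ_iPrE1, 72.4 and 329 CPM in EPZ_iPrE2 and 60.6 and 44 CPM in TG2A_ESC. The defining ones among them summed to 75.2 and 10.3, 19.8 and 116 and 2.86 and 0.734 CPM in these groups, and their part in the EPZ values was not tested.

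**Figure D2:**
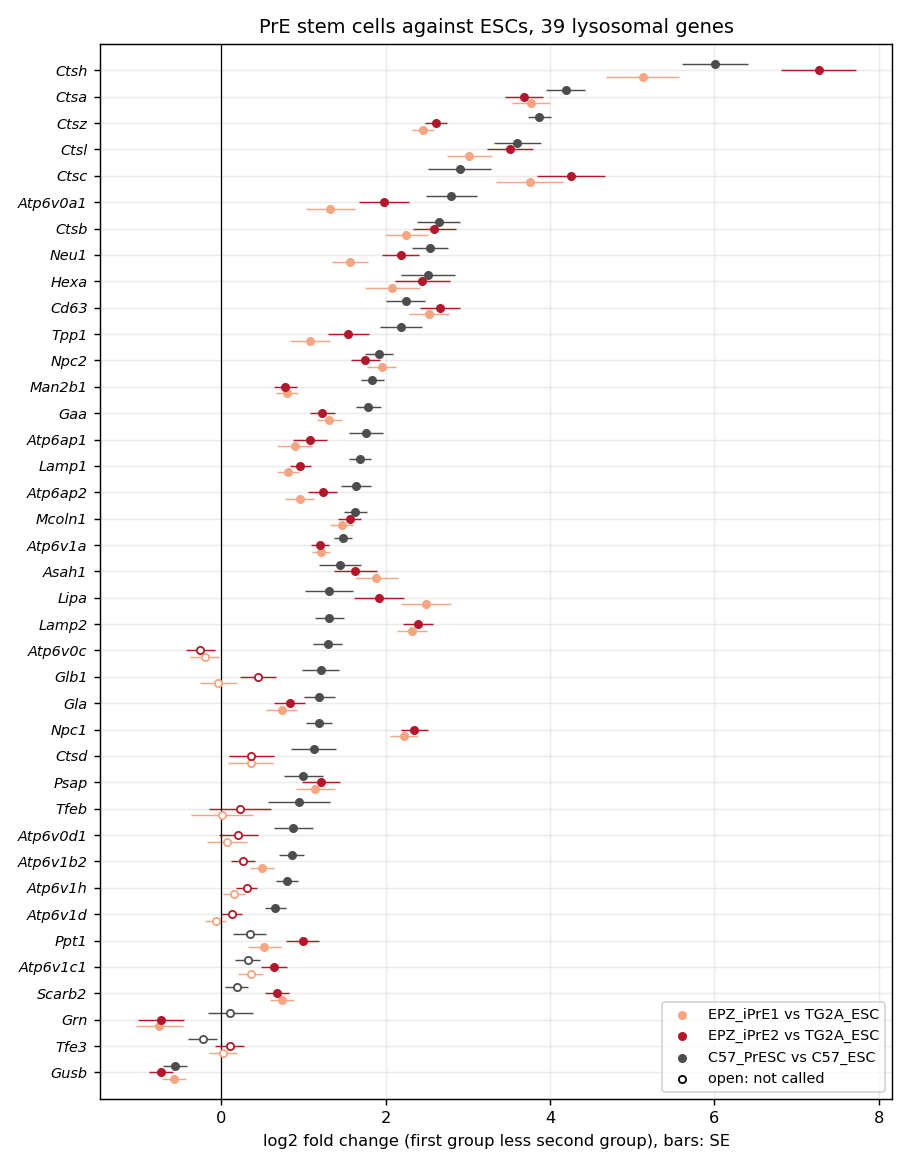
Log2 fold change with its standard error for each of the 39 members, ordered by the C57_PrESC change, in EPZ_iPrE1 and EPZ_iPrE2 over TG2A_ESC and in C57_PrESC over C57_ESC. Filled points passed the test and open points did not. Proteases lie furthest to the right, V-ATPase subunits cluster nearer to 0, and Gusb is to the left in all 3 comparisons.

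The lysosomal proteases differed most, with 7 of 8 higher in each EPZ line and 8 of 8 in C57_PrESC, at median log2 fold changes of 2.73, 3.07 and 3.25. Without C57_PrESC replicate 2 the C57 values were 7 of 8 and 2.76. Ctsh (chr9:90054152-90076089, GRCm38), an aminopeptidase, stood at 0.833 and 0.262 CPM in TG2A_ESC, 17.1 and 21.6 in EPZ_iPrE1 and 82.1 and 89.3 in EPZ_iPrE2. It had 2.49 and 1.11 CPM in C57_ESC and 107 and 124 in C57_PrESC. ESCs of both origins were near the bottom of the measurable range for this gene, with 5 to 47 counts a library, and no PrE library overlapped with them. The log2 fold change of Ctsh was 5.13 (SE 0.45, adjusted p = 5.02e-08) in EPZ_iPrE1, 7.27 (SE 0.46, adjusted p = 1.09e-09) in EPZ_iPrE2 and 6.01 (SE 0.41, adjusted p = 2.63e-09) in C57_PrESC. The TG2A_ESC counts were 16 and 5, and without TG2A_ESC replicate 1 the first 2 values were 6.21 and 8.34.

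Ctsa (chr2:164832873-164841032) encodes cathepsin A, a carboxypeptidase that also protects neuraminidase and beta-galactosidase within one complex. It had 31.2 and 64.7 CPM in TG2A_ESC, 655 and 650.2 in EPZ_iPrE1 and 573 and 657 in EPZ_iPrE2. In the C57 line it had 74.7 and 67.3 CPM in C57_ESC and 1358 and 1233 in C57_PrESC, so that the PrE libraries were all far above the ESC libraries. Log2 fold changes were 3.77 (SE 0.23, adjusted p = 8.55e-10) in EPZ_iPrE1, 3.68 (SE 0.23, adjusted p = 9.93e-10) in EPZ_iPrE2, and 4.19 (SE 0.23, adjusted p = 2.88e-10) in C57_PrESC. Exons of Ctsa share 495 bases (10.5% of its exon length) with Pltp on the opposite strand. Pltp itself averaged 57.9 CPM in C57_ESC and 446 CPM in C57_PrESC. The strand setting of the counting is not known, and the part of Pltp in the Ctsa value was not tested.

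Ctsl (chr13:64359337-64370890) and Ctsz (chr2:174427493-174439039) were the most abundant cathepsins per kilobase in C57_PrESC. Cathepsin L, a broad endopeptidase, had 118 and 230.1 CPM in TG2A_ESC, 1581 and 1236 in EPZ_iPrE1 and 1728 and 2258 in EPZ_iPrE2, and 255 and 164 in C57_ESC and 2043 and 3046 in C57_PrESC. Its log2 fold changes were 3.02, 3.52 and 3.60 in EPZ_iPrE1, EPZ_iPrE2 and C57_PrESC, with standard errors of 0.27 to 0.28. Cathepsin Z, a carboxypeptidase, had 44.2 and 59.4 CPM in TG2A_ESC, 264 and 302 in EPZ_iPrE1 and 324 and 311 in EPZ_iPrE2. Its libraries were tightly grouped in the C57 line as well, with 54.6 and 44.9 CPM in C57_ESC and 734 and 720.4 in C57_PrESC. The Ctsz fold changes had the smallest errors among the cathepsins named here: 2.45 (SE 0.14, adjusted p = 2.63e-10) in EPZ_iPrE1, 2.61 (SE 0.14, adjusted p = 1.24e-10) in EPZ_iPrE2, and 3.87 (SE 0.14, adjusted p = 2.36e-12) in C57_PrESC.

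Ctsc (chr7:88278085-88310888) encodes dipeptidyl peptidase 1, which activates serine proteases of granules. It had 6.35 and 5.56 CPM in TG2A_ESC, 86.3 and 74.4 in EPZ_iPrE1 and 104 and 124 in EPZ_iPrE2. The C57 libraries were more scattered, with 21.6 and 6.97 CPM in C57_ESC and 67.8 and 145 in C57_PrESC, but still did not overlap. Ctsc rose by 3.75, 4.25 and 2.90 (log2), and the last value was 2.24 without C57_PrESC replicate 2 and 3.96 without C57_ESC replicate 1. Ctsb (chr14:63122462-63145923), the endopeptidase cathepsin B, rose by 2.25, 2.59 and 2.64, and by 1.97 in C57 without that PrE library. Its exons share 774 bases with Fdft1 on the opposite strand, which averaged 102 CPM in C57_ESC and 127 CPM in C57_PrESC. The aspartic protease cathepsin D had the smallest differences among the proteases: Ctsd was called in C57_PrESC alone, and not without replicate 2 (log2 fold change 0.59, adjusted p = 0.0704). Whether the change in Ctsd itself differed between the lines was covered by the difference test across all genes, which did not call it.

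**Figure D3:**
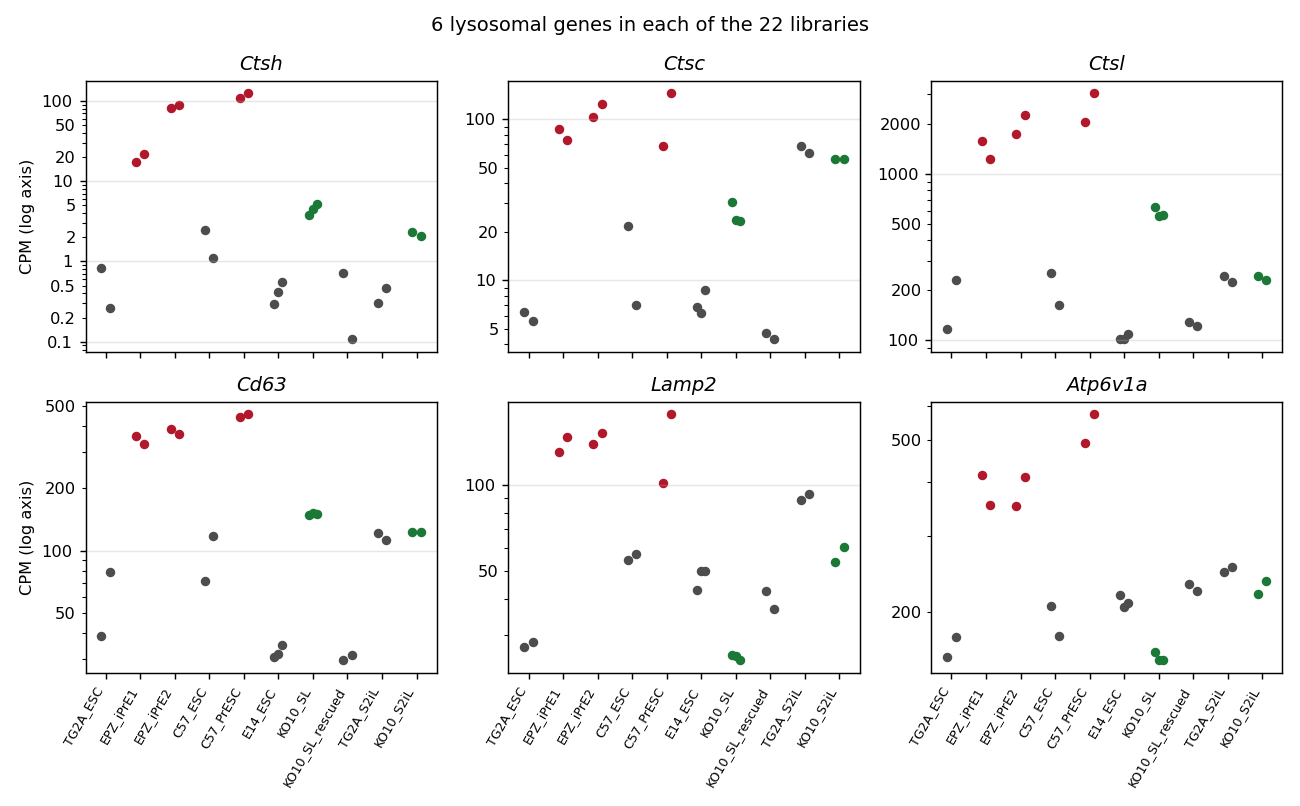
CPM on a log axis of Ctsh, Ctsc, Ctsl, Cd63, Lamp2 and Atp6v1a in all 22 libraries by group; each point is 1 library, red for PrE lines, green for Ezh2-null cells and grey for the others. Ctsh spans the widest range, from under 1 CPM in TG2A_ESC to over 100 CPM in C57_PrESC, and Lamp2 and Atp6v1a are the 2 panels in which KO10_SL lies below E14_ESC.

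Of the 4 membrane proteins, 4 were higher in each EPZ line and 3 in C57_PrESC, where Scarb2, the receptor that carries glucocerebrosidase to the lysosome, was not called. Cd63 (chr10:128900989-128912822), a tetraspanin of late endosomes, had 39 and 79.1 CPM in TG2A_ESC, 355 and 326 in EPZ_iPrE1, 384 and 365 in EPZ_iPrE2, 71.7 and 118 in C57_ESC and 442 and 454 in C57_PrESC. Its log2 fold changes were 2.53, 2.66 and 2.24, with standard errors of 0.24. The first 2 became 3.15 and 3.27 without TG2A_ESC replicate 2. Lamp2 (chrX:38401357-38456454), which takes part in chaperone-mediated autophagy, had 27.1 and 28.4 CPM in TG2A_ESC, 131 and 147 in EPZ_iPrE1 and 139 and 152 in EPZ_iPrE2. It had 54.6 and 57.5 CPM in C57_ESC and 101 and 177 in C57_PrESC, the PrE replicates being further apart than those of the ESCs. Lamp2 rose by 2.32 and 2.39 in the EPZ lines and by 1.31 in C57_PrESC, or 0.85 without replicate 2.

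Npc1 and Npc2, which hand cholesterol out of the lysosome, and Psap, the precursor of the saposins that help to break down sphingolipids, were higher in all 3 PrE lines. Npc1 had 36.8 and 26.8 CPM in TG2A_ESC, 128 and 169 in EPZ_iPrE1 and 174 and 150 in EPZ_iPrE2. It had 74.1 and 92.6 CPM in C57_ESC and 208 and 172 in C57_PrESC, so the PrE libraries lay above the ESC libraries in both backgrounds. The log2 fold changes of Npc1 were 2.22 (SE 0.17, adjusted p = 1.03e-08) in EPZ_iPrE1 and 2.35 (SE 0.17, adjusted p = 4.96e-09) in EPZ_iPrE2. Npc1 shares 511 exon bases with Rmc1 on the opposite strand, and Rmc1 averaged 33 CPM in C57_ESC and 378 CPM in C57_PrESC. In TG2A_ESC, EPZ_iPrE1 and EPZ_iPrE2 Rmc1 averaged 20.2, 42.4 and 44.5 CPM, and its part in the Npc1 values was not tested. Npc2 rose by 1.95 in EPZ_iPrE1 and 1.92 in C57_PrESC. Psap was called in C57_PrESC with both replicates but not without replicate 2, where its log2 fold change was 0.44 (adjusted p = 0.0648).

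Among the 7 glycosidases, 5 were higher in each EPZ line and 6 in C57_PrESC, and the same gene, Gusb, was lower in all 3. Hexa, the alpha subunit of the hexosaminidase that degrades ganglioside GM2, had 16.9 and 55 CPM in TG2A_ESC, 139 and 166 in EPZ_iPrE1 and 179 and 213 in EPZ_iPrE2. It had 57.7 and 41.3 CPM in C57_ESC and 270.5 and 295 in C57_PrESC. The TG2A_ESC replicates of Hexa were as far apart as 16.9 and 55 CPM, yet both lay below every PrE library. Its log2 fold changes were 2.08, 2.45 and 2.51, with standard errors near 0.33, and the EPZ values became 3.19 and 3.54 without TG2A_ESC replicate 2. Neu1, the sialidase that works in one complex with cathepsin A, rose by 2.18 in EPZ_iPrE2 and 2.54 in C57_PrESC.

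Gusb, which removes glucuronate from glycosaminoglycans, went the other way. It had 22.2 and 23.4 CPM in TG2A_ESC, 15.8 and 14.7 in EPZ_iPrE1 and 14.6 and 12.8 in EPZ_iPrE2. It had 28.3 and 26 CPM in C57_ESC and 15 and 21.8 in C57_PrESC. Every PrE library was below the ESC libraries it was compared with, although C57_PrESC replicate 2 came close to them. The log2 fold changes were -0.58 (SE 0.15, adjusted p = 0.00342) in EPZ_iPrE1, -0.74 (SE 0.15, adjusted p = 4.67e-04) in EPZ_iPrE2, and -0.56 (SE 0.15, adjusted p = 0.00364) in C57_PrESC. The C57 call was lost without C57_PrESC replicate 1 (-0.32) and with the C57 groups alone in the fit, and the value was further from 0 without replicate 2 (-0.87).

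Of the lipid and lipoprotein hydrolases, Lipa, the acid lipase that frees cholesterol from its esters, Asah1, the acid ceramidase, and Ppt1, a palmitoyl-protein thioesterase, were all higher in both EPZ lines. Ppt1 was the one not called in C57_PrESC. The log2 fold change of Lipa was 2.49 (SE 0.31, adjusted p = 2.50e-06) in EPZ_iPrE1, from 5.57 and 3.14 CPM in TG2A_ESC to 26 and 23.2 in EPZ_iPrE1. Against E14_ESC as another wild-type control its log2 fold change was 1.67.

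The V-ATPase moved less and less evenly. Of its 10 genes, 5 were higher in each EPZ line and 9 in C57_PrESC (8 without replicate 2), none was lower, and the median log2 fold changes were 0.43, 0.47 and 1.08, against 1.46, 1.56 and 1.63 for the other 29 genes. Without C57_PrESC replicate 2 the C57 medians were 1.07 and 1.70. Atp6v1a, the catalytic subunit of the V1 head, had 157 and 175 CPM in TG2A_ESC, 416 and 354 in EPZ_iPrE1 and 353 and 411 in EPZ_iPrE2, and 206 and 176 in C57_ESC and 494 and 575 in C57_PrESC. It was called higher in all 3 comparisons, as were both accessory genes, Atp6ap1 and Atp6ap2. Atp6v0a1, an isoform of the large V0 subunit that couples the ring to the head, had 37.9 and 49.1 CPM in TG2A_ESC, 136 and 80.9 in EPZ_iPrE1 and 108 and 235 in EPZ_iPrE2. It had 51 and 37.1 CPM in C57_ESC and 239 and 372 in C57_PrESC, and the PrE libraries were above the ESC libraries in each case. Its log2 fold changes were 1.98 (SE 0.30, adjusted p = 2.58e-05) in EPZ_iPrE2 and 2.79 (SE 0.31, adjusted p = 8.33e-07) in C57_PrESC, and the former was 1.31 without EPZ_iPrE2 replicate 2.

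Atp6v0c, which forms the proton-carrying ring itself, was called higher in the C57 comparison and in neither EPZ comparison, and the difference between the lines passed its own test, given below. It had 152 and 275 CPM in TG2A_ESC, 195 and 176 in EPZ_iPrE1 and 180.1 and 177 in EPZ_iPrE2, where the ESC replicates lay on either side of every EPZ library. The C57 libraries were apart, with 142 and 127 CPM in C57_ESC and 317 and 341 in C57_PrESC. Log2 fold changes in the EPZ lines were -0.20 (adjusted p = 0.324) and -0.26 (adjusted p = 0.208), but with E14_ESC as the control they were 0.49 and 0.43 and passed the test. Atp6v0d1, Atp6v1d and Atp6v1h, a V0 subunit and V1 stalk and regulatory subunits, were called in C57_PrESC and in neither EPZ line against TG2A_ESC. Against E14_ESC Atp6v1d passed in EPZ_iPrE1 (0.41), and Atp6v0d1 was not called in C57_PrESC without replicate 2 (0.48, adjusted p = 0.115).

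The regulators did not follow the enzymes. Tfe3 had 87.2 and 63.2 CPM in TG2A_ESC, 78.3 and 74.5 in EPZ_iPrE1 and 82.7 and 78.4 in EPZ_iPrE2, and log2 fold changes of 0.02, 0.10 and -0.23 in the 3 PrE lines, none of which passed the test. Tfeb had 22.7 and 12.2 CPM in C57_ESC and 47.6 and 20 in C57_PrESC, replicates that overlap. Its log2 fold change was 0.00 and 0.23 in the EPZ lines, without a call, and 0.95 (SE 0.38, adjusted p = 0.0395) in C57_PrESC, where it was 0.19 without C57_PrESC replicate 1 and no longer called, as also without C57_ESC replicate 2 (0.58). Mcoln1, the calcium channel of the lysosomal membrane, did rise: it had 19.6 and 25.3 CPM in TG2A_ESC, 69.7 and 54.1 in EPZ_iPrE1, 62.6 and 69.8 in EPZ_iPrE2, 34.3 and 35.3 in C57_ESC and 116 and 98.9 in C57_PrESC. Its log2 fold changes were 1.46, 1.56 and 1.63, each with a standard error of 0.14 to 0.15. Levels of mRNA do not report the nuclear entry by which TFEB and TFE3 are mainly controlled.

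Grn, whose product progranulin is delivered to lysosomes, was called lower in both EPZ lines, at -0.75 (SE 0.28, adjusted p = 0.0289) in EPZ_iPrE1 and -0.74 (SE 0.28, adjusted p = 0.0308) in EPZ_iPrE2. Grn had 59.2 and 132 CPM in TG2A_ESC, beside 56.7 and 56.7 in EPZ_iPrE1 and 60.7 and 54.1 in EPZ_iPrE2. Without TG2A_ESC replicate 2 the log2 fold change was -0.04 in EPZ_iPrE1 and -0.04 in EPZ_iPrE2, and neither was called. The calls were also lost against E14_ESC (-0.36 and -0.34) and without either replicate of the EPZ line concerned. In C57_PrESC the value was 0.11 (adjusted p = 0.763).

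The mean change of the EPZ lines differed from the change of the C57 line for 13 of 39 genes. In this test of the difference 3 genes were higher in the EPZ lines (7.69%, against 18.8% of all genes). The other 10 were lower (25.6%, against 16.3%), and the list exceeded the share of all genes in this direction only. The list median was -0.41 against 0.03 over all genes. Atp6v0c (-1.52, SE 0.23, adjusted p = 8.97e-05) and Ctsz (-1.34, SE 0.17, adjusted p = 1.86e-05) changed less in the EPZ lines. The Atp6v0c difference was -1.03 without TG2A_ESC replicate 2 and -0.83 with E14_ESC as control, and that of Ctsz -1.11 and -1.21, all still called. Atp6v0a1 (-1.15, adjusted p = 0.029) and Man2b1, a lysosomal mannosidase (-1.05, adjusted p = 2.53e-04), also changed less in the EPZ lines, and the Atp6v0a1 call was lost when C57_ESC replicate 2, C57_PrESC replicate 2, EPZ_iPrE1 replicate 2 or TG2A_ESC replicate 2 was left out, for example -0.79 without C57_PrESC replicate 2. Npc1 (1.10, SE 0.22, adjusted p = 8.53e-04) and Lamp2 (1.05, SE 0.23, adjusted p = 0.00219) changed more in them. With E14_ESC as control the difference was 0.64 for Npc1, still called, and 0.27 for Lamp2 (adjusted p = 0.386), which was not. The number of lower genes was 4 without TG2A_ESC replicate 2 and 19 without TG2A_ESC replicate 1, and 6 with E14_ESC as control, so the size of this group rests on the control libraries. Inhibitor exposure, cell line and derivation all differ between the 2 kinds of PrE line and cannot be told apart.

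The 2 EPZ lines were close to each other for this list. Ctsh was the 1 gene called higher in EPZ_iPrE2 than in EPZ_iPrE1 (1.75% of all genes were), at 2.15 (SE 0.33, adjusted p = 9.75e-04), and its libraries did not overlap. None was called lower by edgeR (2.16% of all genes were) or by DESeq2. Of the 39, 5 had an unadjusted p below 0.05, a count with no share of all genes beside it. The median difference was 0.14 against 0.00 over all genes.

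Within C57_PrESC, replicate 2 exceeded replicate 1 for 28 of the 39 genes, with a median ratio of 1.17 and a range of 0.419 to 2.17. How many of all genes lay higher in replicate 2 was not counted. The ratio was highest for Ctsb (2.17), Lipa (2.14), Ctsc (2.13), Psap (1.93) and Ctsd (1.88), all of them enzymes of digestion or their cofactors, and lowest for Tfeb (0.419). The 22 macrophage genes summed to 63.3 and 224 CPM in replicates 1 and 2, and the defining ones among them to 4.27 and 13.1 CPM, with 5 and 0 of the 7 at 0. The macrophage lysozyme Lyz2 stood at 1.49 and 96.9 CPM in C57_PrESC, and the leukocyte cathepsin Ctss at 0 and 9.31 CPM. The 15 fibroblast genes summed to 32.5 and 2329 CPM in the same 2 libraries and to 54.4 and 420.2 CPM in C57_ESC. The part of such RNA in the C57 values was not tested, but with replicate 1 alone Ctsh rose by 5.89, Ctsa by 4.25, Ctsz by 3.88 and Ctsl by 3.28 over C57_ESC.

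**Figure D4:**
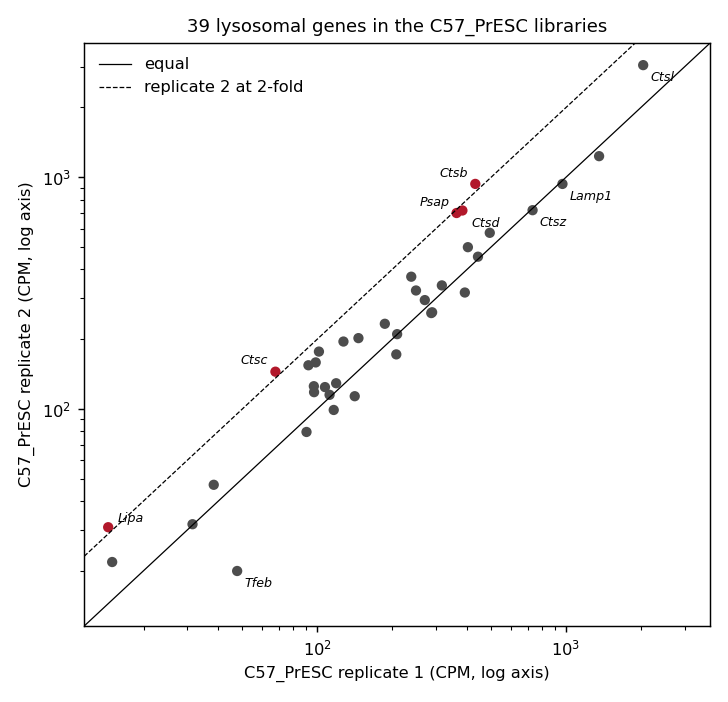
CPM of the 39 members in C57_PrESC replicate 2 against replicate 1, both on log axes. The solid line marks equal values and the dashed line marks replicate 2 at 2-fold of replicate 1. Most points sit near the solid line, and the 5 red points (Ctsb, Lipa, Ctsc, Psap and Ctsd) lie furthest above it.

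Other genes of the pathway, from lists drawn up by function, were counted in EPZ_iPrE1, EPZ_iPrE2 and C57_PrESC, in that order, where 27.9, 28.8 and 27.3% of all genes were higher and 32.2, 33.4 and 33.4% lower. Of 27 other lysosomal hydrolases and activators, 17, 18 and 19 were higher and 2, 2 and 3 lower, with medians of 0.97, 1.10 and 1.19. Lgmn, the asparaginyl endopeptidase legumain, rose by 2.01, 3.28 and 4.30. Of 21 other membrane and transport proteins, 12, 15 and 15 were higher and 3 lower each time. Sialin (Slc17a5), which exports sialic acid from the lysosome, rose by 4.26, 4.13 and 4.55. Of 11 other V-ATPase genes, 4 were higher each time and 4, 3 and 3 lower, with medians of 0.22, 0.01 and 0.37, shares near those of all genes. The isoform Tcirg1, an alternative large V0 subunit, rose by 1.92, 1.93 and 2.01, while Atp6v0e2 fell by 5.05, 6.92 and 2.85.

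Of 10 genes for delivery of hydrolases, 7, 6 and 6 were higher and 2, 1 and 2 lower. Gnptab, which makes the mannose-6-phosphate tag, rose by 2.22, 2.40 and 1.76. Sort1, the sorting receptor sortilin, fell by 2.73, 3.94 and 4.59. Igf2r, the large mannose-6-phosphate receptor, had 111 and 87.6 CPM in TG2A_ESC, 611 and 622 in EPZ_iPrE1 and 815 and 795 in EPZ_iPrE2, but 139 and 193 in C57_ESC and 63.4 and 160 in C57_PrESC. It rose by 2.63 and 3.02 in the EPZ lines and was at -0.57 (adjusted p = 0.079) in C57_PrESC, and the difference between the lines was 3.39 (SE 0.38, adjusted p = 4.86e-06). Of 20 genes of TFEB and mTORC1 control, 4, 5 and 10 were higher and 8, 8 and 6 lower, with medians of -0.29, -0.08 and 0.34, shares near those of all genes in the EPZ lines. Mitf, a relative of Tfeb, fell by 2.66, 1.61 and 2.74, and Rragd, a Rag GTPase that recruits mTORC1, by 3.18, 3.02 and 2.54. Tfec, another relative, stood higher in C57_PrESC, at 8.39 and 48 CPM in replicates 1 and 2 against 0.795 and 0 in C57_ESC. It had 0.26 and 0.21 CPM in TG2A_ESC, 2.46 and 0.078 in EPZ_iPrE1 and 1.03 and 6.58 in EPZ_iPrE2. Of 19 autophagy genes, 8, 9 and 11 were higher and 4 lower each time.

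Many of the same enzymes were higher in Ezh2-null ESCs. In KO10_SL over E14_ESC, 23 of 39 genes were higher (59%, against 25.8% of all genes) and 4 lower (22.7% of all genes), with a median of 0.51 against 0.07 over all genes. By role, 13 of the 18 hydrolases were higher and none lower, while of the V-ATPase genes 5 were higher and 1 lower. Ctsh had 0.299, 0.418 and 0.56 CPM in E14_ESC and 3.78, 4.54 and 5.26 in KO10_SL, which rests on 5 to 15 counts a library in E14_ESC, and its log2 fold change was 3.33 (SE 0.39, adjusted p = 3.66e-06). Ctsl had 102, 102 and 109.6 CPM in E14_ESC and 633, 559.7 and 565 in KO10_SL (2.49, SE 0.22, adjusted p = 2.28e-07). Cd63 had 30.8, 32 and 35.3 CPM in E14_ESC and 149, 151 and 151 in KO10_SL (2.20, SE 0.20, adjusted p = 2.60e-07). In these 3 genes every null library was above every E14_ESC library, and the null levels stayed below those of the PrE lines.

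Ctsc (1.82, SE 0.32, adjusted p = 1.72e-04) and Hexa (1.18, SE 0.27, adjusted p = 0.00157) rose as well. The 4 lower genes, named here after their values were seen apart from Scarb2, were Scarb2, Tfe3, Lamp2 and Atp6v1a. Scarb2 had 52.6, 61.5 and 75.7 CPM in E14_ESC and 30.8, 29.3 and 25.5 in KO10_SL (-1.15, SE 0.12, adjusted p = 1.17e-06). Tfe3 had 80.5, 94.6 and 101 CPM in E14_ESC and 51.8, 45.6 and 45.3 in KO10_SL, and Lamp2 had 42.9, 49.9 and 49.9 CPM in E14_ESC and 25.5, 25.3 and 24.4 in KO10_SL. Lamp2 and Atp6v1a were thus lower in null cells than in E14_ESC, and higher in PrE cells than in their own ESCs. TG2A_ESC lay closer to the null cells, with 27.1 and 28.4 CPM for Lamp2 and 157 and 175 for Atp6v1a. Atp6v1a had 162, 154 and 155 CPM in KO10_SL. Of the genes called higher in KO10_SL, 22 were also called higher in C57_PrESC, which shares no library with it (56.4% of the list, where 9.45% of all genes were higher in both), which is 22 of 23 and 22 of 33. In the same null libraries 12 of 13 PrE marker genes were higher and 1 lower, and the defining ESC markers summed to 839.8 to 908 CPM against 858 to 989 CPM in E14_ESC. The part of PrE marker expression in the lysosomal values was not tested.

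The choice of wild-type ESCs mattered. With TG2A_ESC in place of E14_ESC, 11 genes were higher and 2 lower, Ctsl was at 1.75 and Cd63 at 1.35, and Hexa was not called (0.65). How many of all genes were called with this control was not counted, so these counts have no share beside them. Between the wild-type sets themselves, E14_ESC over TG2A_ESC, 6 genes were higher (11.2% of all genes) and 6 lower (13.1%), with a median of -0.23 against 0.01. On the log2 scale Cd63 was lower by 0.85, Ctsl by 0.74, Atp6v0c by 0.69 and Gla, an alpha-galactosidase, by 0.57, while Lipa was higher by 0.83 and Lamp2 by 0.78. The number lower was 0 without TG2A_ESC replicate 2 and 15 without TG2A_ESC replicate 1, and the number higher was 2 to 5 without single libraries. TG2A_ESC replicate 2 held 3895 CPM of the list against 2586 CPM in replicate 1.

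In the clone with Ezh2 restored the list lay near its wild-type level. KO10_SL_rescued against KO10_SL, a comparison that uses the same null libraries, had 21 of 39 genes lower (24.1% of all genes) and 4 higher (20.9%), with a median of -0.54 against -0.11. Ctsh fell to 0.721 and 0.107 CPM, a log2 fold change of -3.44 (SE 0.47, adjusted p = 2.25e-05). Ctsc fell by 2.52 to 4.71 and 4.29 CPM, Cd63 by 2.30 to 29.7 and 31.5 CPM and Ctsl by 2.23 to 128 and 121 CPM. Hexa fell by 1.58 and Grn by 1.49. The 4 genes that rose, named after their values were seen, were Tfe3, Scarb2, Lamp2 and Atp6v1a. Compared with E14_ESC, the rescued clone had none of the 39 genes called in either direction by edgeR (0.0285% of all genes were higher and 0.0798% lower) or by DESeq2. Of the 39, 5 had an unadjusted p below 0.05, again without a share of all genes beside it. The median difference of the list was -0.10.

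**Figure D5:**
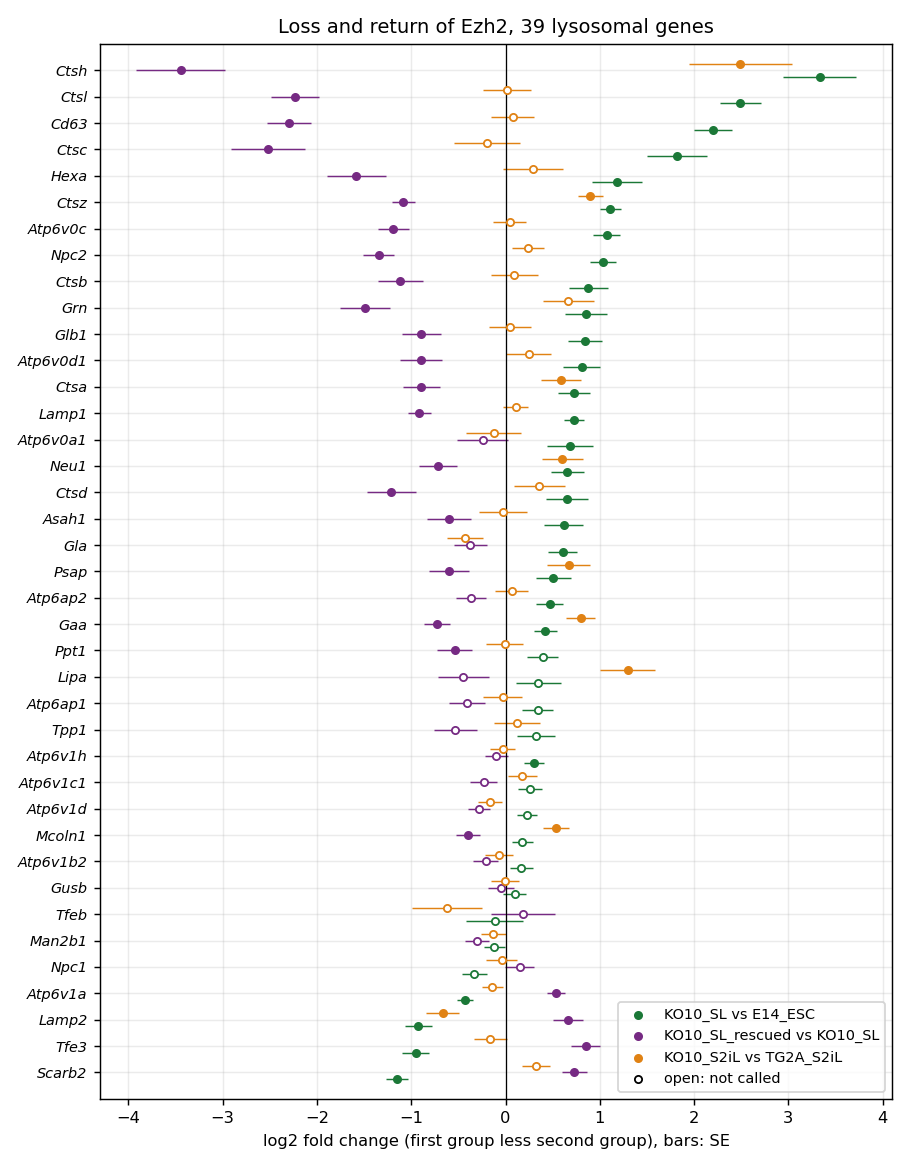
Log2 fold change with its standard error for the 39 members in KO10_SL over E14_ESC, in KO10_SL_rescued over KO10_SL and in KO10_S2iL over TG2A_S2iL; filled points passed the test and open points did not. Proteases lie to the right in the first comparison and to the left in the second, and most points of the third are open.

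In 2i medium the null clone was set against wild-type cells in the same medium. In KO10_S2iL over TG2A_S2iL, 8 genes were higher (15.7% of all genes) and 1 lower (14.3%), with a median of 0.07 against 0.01, and none of the V-ATPase genes was called by edgeR or had an unadjusted p below 0.05. The number higher was 4 to 5 without any 1 of these libraries, and 16 (with 6 lower) when they alone were fitted. Ctsh (2.49, SE 0.55, adjusted p = 0.00305), Lipa (1.30, SE 0.29, adjusted p = 0.00356) and Ctsz (0.90, SE 0.13, adjusted p = 1.39e-04) were among those higher. Lipa had 7.62 and 8.18 CPM in TG2A_S2iL and 19.4 and 19.4 in KO10_S2iL, and Gaa, the acid alpha-glucosidase, rose by 0.80. Psap rose by 0.67 and Lamp2 fell by 0.67, but the Psap call was lost without any 1 of the 4 libraries and the Lamp2 call without KO10_S2iL replicate 1 or TG2A_S2iL replicate 2. Of 13 PrE marker genes 6 were higher in these libraries. Of the list, 6 genes were called higher in the null clone in both media (15.4%, against 8.59% of all genes), in comparisons that share no library, which is 6 of 23 and 6 of 8.

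With 2i several genes stood higher in both genotypes. In wild-type cells 12 genes were higher with 2i (11.7% of all genes) and none lower by edgeR (11.6%) or by DESeq2. An unadjusted p below 0.05 was found for 21 of the 39, a count with no share of all genes beside it. The number higher was 8 without TG2A_S2iL replicate 1 and 22 without TG2A_ESC replicate 2. Ctsc had 67.6 and 61.8 CPM in TG2A_S2iL against 6.35 and 5.56 in TG2A_ESC (3.44, SE 0.41, adjusted p = 3.64e-05), beside 67.8 to 145 CPM in the 6 PrE libraries. Lamp2 had 88.8 and 92.9 CPM in TG2A_S2iL against 27.1 and 28.4 in TG2A_ESC (1.71, SE 0.18, adjusted p = 1.25e-05), and Ctsb rose by 1.35. In the null clone 15 genes were higher with 2i (19.6% of all genes) and 2 lower (17.3%), and 8 higher without KO10_S2iL replicate 2. Here Ctsl had 243 and 232 CPM in KO10_S2iL against 633, 559.7 and 565 in KO10_SL (-1.30, SE 0.24, adjusted p = 5.60e-04), beside 245 and 225 CPM in TG2A_S2iL. Lamp2 (1.19) and Psap (1.04) were higher.

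The null effect itself differed between the media for 4 genes, with TG2A_ESC as the wild-type control in LIF alone. This comparison was not planned and was added after the values were seen. In this test of the difference 1 gene was higher (0.838% of all genes) and 3 lower (1.12%) under 2i. Ctsc (-2.31, SE 0.51, adjusted p = 0.0283), Ctsl (-1.73, SE 0.35, adjusted p = 0.0182) and Cd63 (-1.27, SE 0.31, adjusted p = 0.0457) had a lower null change with 2i, and Scarb2 (0.99, SE 0.20, adjusted p = 0.0169) a higher one. Scarb2 had 43.3 and 43.7 CPM in KO10_S2iL and 35.2 and 34.5 in TG2A_S2iL, but 30.8, 29.3 and 25.5 in KO10_SL and 47.4 and 43.6 in TG2A_ESC. Cd63 had 123 and 123 CPM in KO10_S2iL and 122 and 112 in TG2A_S2iL, as against 149, 151 and 151 in KO10_SL and 39 and 79.1 in TG2A_ESC. Leaving out single libraries gave 0 to 5 lower genes and 0 to 2 higher ones: 0 lower without TG2A_ESC replicate 1 and 5 without TG2A_ESC replicate 2. Each of the 4 calls was lost without KO10_S2iL replicate 1.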

How the data were processed

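RNA-seq of 22 mouse cell libraries was used. The authors deposited estimated counts per gene symbol, unscaled; 5.71 to 7.26% of symbols per library held fractional values, including 10 members in some library, so counts were rounded. Per the submitters' processing notes, Trim Galore, STAR 2.7.6a, DESeq2 and mm10 were used. How reads were counted, with which annotation and by which strand, is not stated in those notes or the labels. The labels name polyA RNA but an rRNA depletion kit, so the RNA selection is uncertain.

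Genes were kept with filterByExpr over 10 groups, scaled by TMM and fitted in edgeR 4.0.16 (R 4.3.3) by quasi-likelihood, a coefficient for each group, with 12 residual degrees of freedom. Contrasts were adjusted over 17547 genes by Benjamini-Hochberg and called below 0.05. The contrast of the null effect between media was added after the values were seen. The code was tested on simulated data. Alternatives were DESeq2 1.42.0, other scaling, no filter, unrounded counts, fewer groups, a replicate block, single libraries left out and another wild-type control, the last chosen after seeing the data.

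Members and lists were chosen with earlier results of these data known. Fold changes are printed for up to 12 called members per PrE comparison and 6 in others, those against their role's direction, the regulators, and up to 4 genes per pathway list; other values given were chosen after they were seen. Locations are from GENCODE M21 (GRCm38). Exons of 12 members overlap those of another gene, so their counts are uncertain.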

Additional observations from a re-analysis of the deposited data

Results flagged for a closer look

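In 10 cases a member's change differed between 2 settings by a test of the difference itself, on the log2 scale, with edgeR. The EPZ change less the C57 change was -1.52 for Atp6v0c, -1.34 for Ctsz, -1.15 for Atp6v0a1 and -1.05 for Man2b1, all smaller in the EPZ lines. It was 1.10 for Npc1 and 1.05 for Lamp2, larger in the EPZ lines. With E14_ESC in place of TG2A_ESC the Lamp2 difference was 0.27 and that of Atp6v0a1 -0.89, neither of them called, and Atp6v0c was at -0.83. The Atp6v0a1 difference was -0.79 and no longer called without C57_PrESC replicate 2. The null effect with 2i less that without it was -2.31 for Ctsc, -1.73 for Ctsl, -1.27 for Cd63 and 0.99 for Scarb2. That comparison between media was added after the values were seen.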

How the results depend on the processing

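The numbers of members higher in the 3 PrE comparisons stayed within 1.5 times of those reported under all alternatives run, at 26 to 31, 28 to 34 and 30 to 33 when single libraries were left out of EPZ_iPrE1, EPZ_iPrE2 and C57_PrESC, and the numbers lower were 1 to 3, 1 to 3 and 0 to 2. Leaving out single libraries gave 2 to 5 higher and 4 to 19 lower for the EPZ change less the C57 change, 1 to 3 higher for EPZ_iPrE2 over EPZ_iPrE1, 17 to 20 higher and 4 to 5 lower for KO10_SL, and 16 to 18 lower for the rescued clone. It gave 4 to 5 higher and 0 to 1 lower for KO10_S2iL, 8 to 22 higher and 0 to 2 lower for 2i in wild-type cells (8 without TG2A_S2iL replicate 1, 22 without TG2A_ESC replicate 2), 8 to 13 higher and 1 to 2 lower for 2i in null cells (fewest higher without KO10_S2iL replicate 2), 2 to 5 higher and 0 to 15 lower for E14_ESC over TG2A_ESC, and 0 to 2 higher and 0 to 5 lower for the null effect between media.

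With only the compared groups in the fit, the numbers lower were 1 in EPZ_iPrE1, 1 in EPZ_iPrE2, 0 in C57_PrESC, 4 for the EPZ change less the C57 change, 10 for 2i in null cells and 5 for the null effect between media; KO10_S2iL had 16 higher and 6 lower, the rescued clone 1 higher and 1 lower than E14_ESC, and E14_ESC 2 higher than TG2A_ESC. Without a filter on low counts, the EPZ change less the C57 change had 19 lower, EPZ_iPrE2 had 6 higher than EPZ_iPrE1, the rescued clone 3 lower than E14_ESC, KO10_S2iL 2 lower, 2i in wild-type cells 21 higher and E14_ESC 11 lower than TG2A_ESC. With E14_ESC as control, each EPZ line had 1 lower, the EPZ change less the C57 change 6 lower, and the null effect between media 2 higher and 7 lower. With TG2A_ESC as control, KO10_SL had 11 higher and 2 lower. The cause of these shifts was not tested.

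Deviations of same-numbered libraries correlated at -0.529 to 0.304, and 3 of 23 pairs were above 0.1. The highest value was that of C57_PrESC and C57_ESC, where fibroblast genes summed higher in replicate 2 of both groups. Where both groups hold 2 libraries, the values of the 2 replicates are the same by construction and count once. With a replicate block, EPZ_iPrE1 and EPZ_iPrE2 had 28 higher and 2 lower, C57_PrESC 32 and 1, and KO10_SL 23 and 4, while 2i in null cells had 1 lower, E14_ESC 2 higher than TG2A_ESC, and the null effect between media 1 lower.

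Values that changed sign belonged to members not called in the comparison as reported. With E14_ESC as control, EPZ_iPrE1 had log2 fold changes of 0.49 for Atp6v0c, 0.41 for Atp6v1d, 0.46 for Glb1, -0.27 for Tfe3 and -0.040 for Tfeb, and EPZ_iPrE2 0.43 for Atp6v0c and -0.19 for Tfe3; the Atp6v0c and Atp6v1d values passed the test. Leaving out single libraries gave, in EPZ_iPrE1, -0.53 to 0.31 for Atp6v0c (called at the upper end, without TG2A_ESC replicate 2), -0.23 to 0.18 for Atp6v1d, -0.38 to 0.50 for Glb1, -0.17 to 0.31 for Tfe3 and -0.37 to 0.28 for Tfeb. In EPZ_iPrE2 it gave -0.60 to 0.24 for Atp6v0c, -0.11 to 0.37 for Tfe3 and -0.37 to 0.65 for Tfeb, and in C57_PrESC -0.32 to 0.43 for Grn and -0.48 to 0.12 for Tfe3. With DESeq2's size factors, in edgeR or in DESeq2, Tfe3 was -0.027 and Tfeb -0.045 in EPZ_iPrE1. Against E14_ESC the log2 fold changes of Lamp2 were 1.54 and 1.61, and of Ctsl 3.75 and 4.25, in EPZ_iPrE1 and EPZ_iPrE2. Counts as low as those of Ctsh in ESCs limit the size of its fold change.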
